A study of Coturnix japonica with 42 samples.

Results

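The comparison set the morning of the second long day against the same hours of the first long day in Japanese quail (Coturnix japonica). The tissue was the mediobasal hypothalamus. The second morning is represented by the arrays labelled time 50 h and time 54 h, and the first morning by the arrays labelled time 26 h and time 30 h. These are 8 of the 42 arrays of the series, 4 on each side. All birds were males aged 8 weeks that had spent 4 weeks on short days (6 h light, 18 h dark) before 1 more short day and 2 long days (20 h light, 4 h dark) were sampled. At each of 21 time points 6 birds were taken, and each array was hybridised with RNA pooled from 3 birds, so n counts pools. No genotype is given in the labels, and every bird had the same short-day history.

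The labels do not state when the lamps were switched on, and the times were taken to count from lights-on of the sampled short day. On that reading both mornings were sampled after 2 h and 6 h of light. The birds of the second morning then had a day of 20 h of light and a night of 4 h behind them. The birds of the first morning had only short days behind them, with a night of 18 h before the light came on. The mornings therefore differ in the preceding day and in the preceding night together, and these cannot be told apart. The short-day mornings, 4 arrays at times 2 h and 6 h, are given beside them.

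The mediobasal hypothalamus is the part of the bird brain in which a change of day length is turned into a reproductive response. In quail, long light induces thyrotropin in the pars tuberalis of the pituitary, just beneath this tissue. Thyrotropin acts on its receptor in tanycytes, ependymal cells that line the floor of the third ventricle, where it induces type 2 deiodinase, which activates thyroid hormone, and represses type 3 deiodinase, which inactivates it. The comparison asks which transcripts differ between the mornings before and after that switch, at matched hours of the day.

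The arrays of both mornings were of similar quality. The deposited trimmed mean ran from 25.15 to 34.93 on the second morning and from 27.12 to 34.64 on the first (exact permutation p = 0.371, two-sided, smallest possible 0.0286). The share of probe sets at or under the floor was 23.3% to 26.2% on the second morning and 23.7% to 25.4% on the first. The GAPDH 3' to 5' ratio was 1.12 to 1.29 on the second morning and 1.2 to 1.27 on the first (exact permutation p = 0.229). Without array 1 of 50 h these ratios did not overlap. The paired arrays of 50 h correlated at 0.879, as did those of 54 h, against 0.897 at 26 h and 0.89 at 30 h. Every time point before 50 h had a correlation of at least 0.89. The label of the tissue was set against its markers. SNAP25, a synaptic protein of neurons, had signals of 5960 to 8050 on the second morning and 5630 to 6300 on the first, and NPY, a neuropeptide of the arcuate nucleus, had 1970 to 3070 and 1910 to 2930 on the same arrays. Of the hormones of the main pituitary lobe, GH was dim, at 2.78 to 19.2 on the second morning and 18.2 to 27.2 on the first. PRL was also dim, at 2.19 to 19.9 and 14.4 to 22.7. CGA, a hormone subunit gene on the same marker list, was not dim. It had 587 to 1370 on the second morning and 659 to 1110 on the first, and it is part of the sum that follows. POMC of that list was also well above the floor. The summed signal of the 12 anterior pituitary markers tested was 1160 to 2000 on the second morning and 1260 to 1790 on the first.

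Few transcripts passed the test for a difference between the mornings, and of these DIO3, the type 3 deiodinase, differed most. It was 21.9-fold lower on the second morning, and the type 2 deiodinase DIO2 was 2.66-fold higher. VIM, the intermediate filament protein of tanycytes, was 2.19-fold higher. The immediate early gene EGR1 and the cytosolic chaperone genes HSPA2 and DNAJA4 were 1.83-fold to 2.18-fold lower. Of 32057 probe sets, 16 passed the limma test (adjusted p under 0.05), which is 0.0499% of those tested. Of these, 5 were higher on the second morning (0.0156%) and 11 were lower (0.0343%), and 1918 probe sets had an unadjusted p under 0.05. The 16 probe sets stood for 14 genes and 2 transcripts with no symbol. All 16 had the same sign at hour 2 and at hour 6, and in 14 the arrays of both mornings did not overlap. The 16 were selected on the mean of both hours on these same arrays, so both counts follow in part from the selection. Over all probe sets tested, 451 had all 4 second-morning arrays above all 4 first-morning arrays (1.41%) and 475 had them all below (1.48%).

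All 16 probe sets kept their direction in the 20 planned settings tried, while the number of calls depended on the model and on single arrays. Without the variance trend 3 probe sets were called, those of DIO3, GREM1 and LOC422926, and in a fit of only the 8 arrays only DIO3 was called. The count was 7 without array 1 of 50 h, 8 without array 2 of 26 h and 10 without array 1 of 30 h. Without scaling, 1 probe set was called higher and 11 lower, and with the arrays centred on the median 2 were higher and 8 lower.

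**Figure D1:**
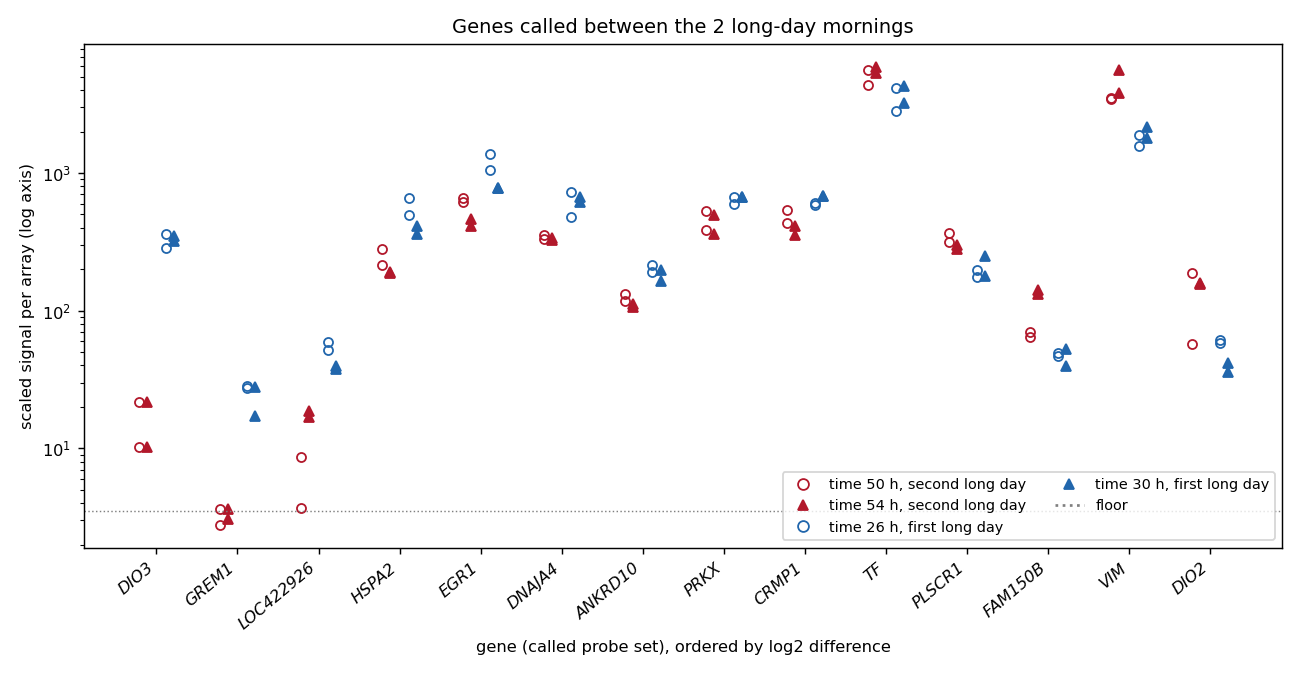
Scaled signal (log axis) of the 14 called genes on each array, ordered by log2 difference, with second-morning arrays in red to the left of first-morning arrays in blue; open circles are hour 2 and triangles hour 6. DIO3 lies at 10.3 to 21.8 on the second morning, against 287 to 363 on the first, while the DIO2 arrays overlap through 1 array of 50 h at 56.9.

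In the sentences on single genes, the signals of a morning are given with both arrays of hour 2 first and both arrays of hour 6 after them. DIO3, the type 3 deiodinase that inactivates thyroid hormone, had signals of 21.8, 10.3, 21.6 and 10.3 on the second morning, against 287, 363, 348 and 318 on the first. Each second-morning array was far below every first-morning array. The fall was 21.9-fold (95% interval 14.7 to 32.6, n = 4 arrays a side, limma adjusted p = 3.36e-13). It was 21.5-fold at hour 2 and 22.3-fold at hour 6. The call held without each of the 8 arrays in turn, with log2 differences of -4.72 to -4.18. The size rests on dim second-morning signals: with log2(signal + 16) in place of the floor the difference was -3.45, and the call held. In pooled tissue, fewer cells of a type and less RNA per cell cannot be told apart, here and in each result that follows.

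DIO2, the type 2 deiodinase that makes the active hormone T3, had signals of 187, 56.9, 156 and 160 on the second morning, against 58.7, 60.9, 41.6 and 35.8 on the first. The mornings overlapped through array 2 of 50 h, which lay at the level of the first-morning arrays of the same hour. DIO2 was 2.66-fold higher (95% interval 1.92 to 3.69, limma adjusted p = 0.00455). The log2 difference was 1.84 without the low array and 0.98 without array 1 of 50 h, where the adjusted p was 0.088 and the call was lost. A dimmer probe set of DIO2 had 22, 28, 19.1 and 15 on the second morning, against 2.15, 6.69, 5.15 and 7.61 on the first. These did not overlap, but the probe set did not pass the test (log2 difference 1.90, adjusted p = 0.23). On values without scaling the DIO2 difference was 1.28 with an adjusted p of 0.0738.

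The rest of the thyroid hormone pathway showed no call on these mornings. Of 27 genes listed for thyroid hormone and photoperiod signalling, 24 were on the array and 22 were tested. DIO2 was called higher and DIO3 lower, and the log2 differences of the other 20 ran from -0.38 for TEF to 0.43 for TTR. The median of the list was 0.00 on the log2 scale, against 0.01 over the 12311 genes tested. TEF encodes a bZIP transcription factor that binds D-boxes and is also on the clock list, and TTR encodes transthyretin, a carrier of thyroid hormone.

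TSHB, the beta subunit of thyrotropin, had signals of 7.99, 5.18, 20.7 and 12.6 on the second morning, against 12.5, 6.97, 24.1 and 7.46 on the first. The arrays overlapped throughout, with a log2 difference of -0.13 and an adjusted p of 0.988. CGA, which encodes the alpha subunit of thyrotropin and the gonadotropins, had 754, 587, 1370 and 768 on the second morning, against 659, 731, 1110 and 1080 on the first (log2 difference -0.08, adjusted p = 0.985). EYA3, a transcriptional coactivator of TSHB known in mammals, had means of 22.2 (50 h) and 22.5 (54 h) on the second morning, against 23.8 (26 h) and 15.5 (30 h) on the first. TSHR, the thyrotropin receptor, ranged from 31.2 to 46.4 on the second morning and from 32.5 to 47.5 on the first. The sign of the differences of TSHB, CGA and EYA3 turned when single arrays were left out.

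The course between the mornings shows where the called genes stood in the hours that separate them. DIO3 averaged 357 at 34 h, 164 at 40 h, 51.9 at 42 h and 31.3 at 46 h, then 16.1 at 50 h and 15.9 at 54 h, and it remained between 6.97 and 19.3 from 58 h to 70 h. DIO2 averaged 89.7 at 40 h, reached 235 at 44 h, was at 200 at 46 h, and stood at 122 at 50 h and 158 at 54 h. Its averages from 58 h to 70 h were 119 to 161. TSHB averaged 153 at 40 h and 31.7 at 46 h, had means of 6.59 and 16.7 on the second morning (50 h, 54 h), and reached 106 at 66 h. At the second morning DIO3 thus stood away from its first-morning level at hours when the TSHB signals of both mornings overlapped. These averages of 2 arrays are given as a description.

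**Figure D2:**
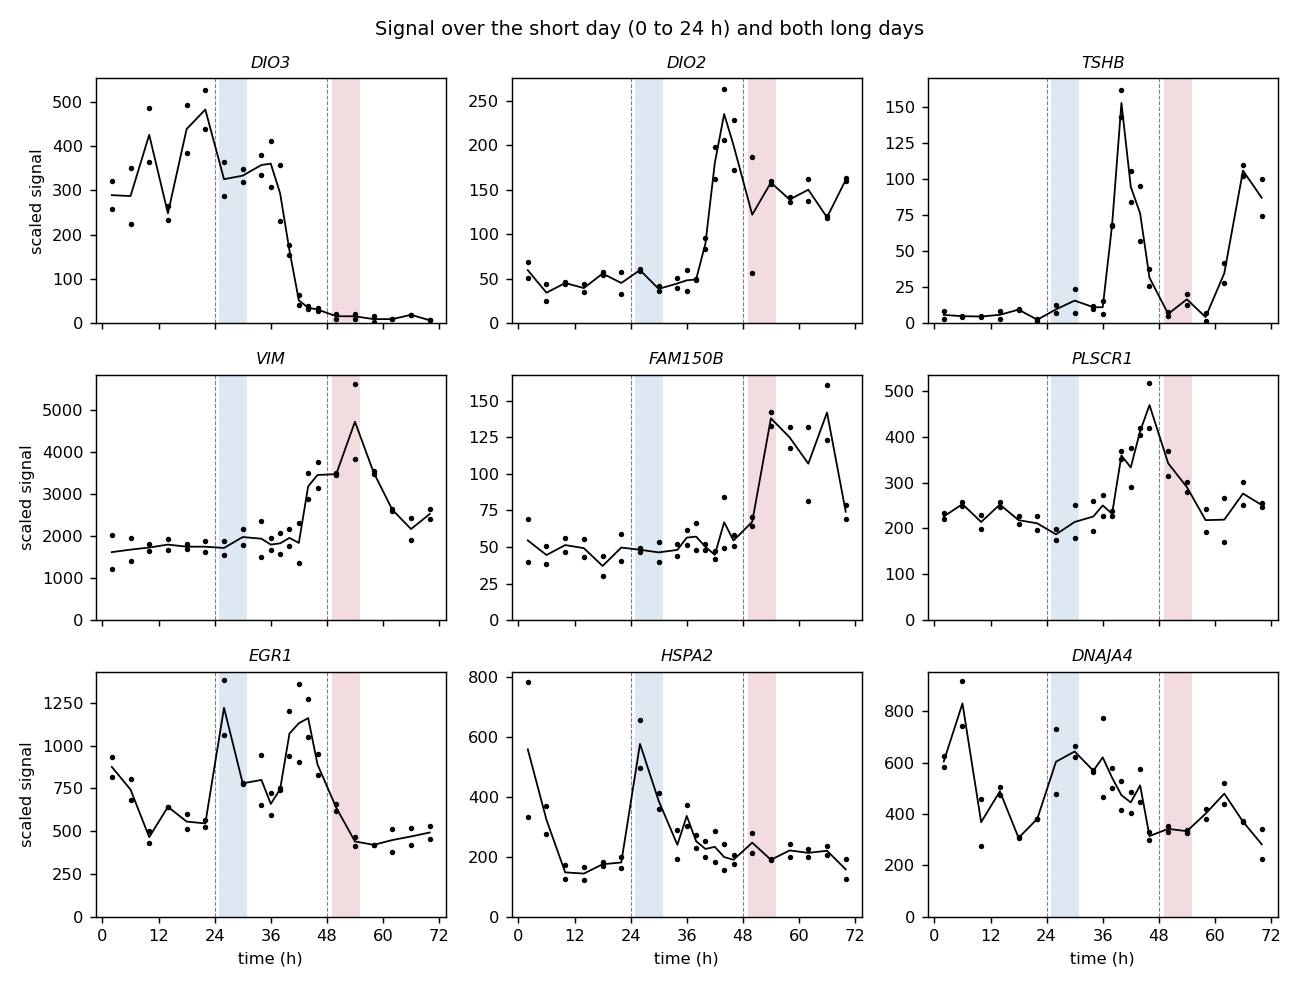
Scaled signal against time in hours for 9 genes, with each array as a point and the mean of 2 arrays per time as a line; dashed lines part the short day, the first long day and the second long day, the red band marks the second morning (50 h and 54 h) and the blue band the first (26 h and 30 h). The DIO3 means stay at or under 51.9 from 42 h on, and the TSHB means of 6.59 and 16.7 in the red band lie well below its means of 153 at 40 h and 106 at 66 h.

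VIM encodes vimentin, an intermediate filament protein of tanycytes that is also made by endothelial cells and fibroblasts. Its signals were 3500, 3470, 5620 and 3830 on the second morning, against 1560, 1890, 2170 and 1790 on the first. The lowest second-morning array was above the highest first-morning array. VIM was 2.19-fold higher (95% interval 1.74 to 2.74, limma adjusted p = 5.27e-04), and the call held without each array in turn, with log2 differences of 0.99 to 1.27. It averaged 1840 at 42 h, 3190 at 44 h and 3460 at 46 h, and then 3480 at 50 h. The highest mean of the series was 4730 at 54 h, and VIM was at 2170 at 66 h.

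VIM was the only one of the 19 tested tanycyte and ependymal markers that was called, and 6 of the 19 had an unadjusted p under 0.05, 4 higher and 2 lower, against 6.43% of all genes in either direction. The list was chosen with earlier results of these data known, so the count of 6, VIM included, is a description. The median log2 difference of the list was -0.13, and the members not called ran from -0.59 to 1.48. In 2 of the 19, VIM included, all second-morning arrays lay above all first-morning arrays, and 0 had them all below. SOX2, a transcription factor of neural stem cells and tanycytes, had 41 to 57.3 on the second morning and 50.8 to 78.1 on the first. FABP7, a fatty acid binding protein of radial glia, had 266 to 526 on the second morning and 248 to 289 on the first (log2 difference 0.36, adjusted p = 0.823). Without VIM, the summed signal of the other 18 markers was 3070 to 3480 on the second morning and 2700 to 3120 on the first, which overlapped. The summed signal of 16 endothelial markers was 844 to 1010 on the second morning and 884 to 1130 on the first. Without the called GREM1, 17 fibroblast and meningeal markers summed to 2100 to 2760 on the second morning and 2190 to 2720 on the first. Of all 18, GREM1 included, 4 had an unadjusted p under 0.05, all lower, against the same 6.43% of all genes. That count too is a description. The part of these cells in the VIM result was not tested.

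The 3 other genes called higher code for secreted or membrane proteins. FAM150B, a secreted ligand of the receptor tyrosine kinases ALK and LTK in mammals, had signals of 64.1, 70.2, 142 and 133 on the second morning, against 46.5, 49.6, 39.5 and 53.1 on the first. The mornings did not overlap, and both arrays of 54 h were the highest. FAM150B was 2.05-fold higher (95% interval 1.53 to 2.74, adjusted p = 0.0415), and averaged 54.4 at 46 h, 67.2 at 50 h, 138 at 54 h and 142 at 66 h. Leaving out any array but array 2 of 30 h ended the call (adjusted p 0.093 to 0.332).

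PLSCR1, a phospholipid scramblase induced by interferon in mammals, had signals of 369, 315, 301 and 279 on the second morning, against 198, 175, 179 and 250 on the first. The mornings did not overlap, with 1 first-morning array of 30 h close to the second-morning range. The gene was 1.58-fold higher (95% interval 1.31 to 1.91, adjusted p = 0.0425). It averaged 469 at 46 h, above both mornings, and 218 at 58 h. Only without array 2 of 50 h or array 2 of 30 h did the call hold (adjusted p 0.0665 to 0.433 for the other 6). The 2 dimmer probe sets of PLSCR1 had differences of the same sign that were not called.

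TF encodes transferrin, an iron carrier that is made in the brain by oligodendrocytes and choroid plexus and elsewhere by the liver. Its signals were 5600, 4360, 5900 and 5320 on the second morning, against 4120, 2800, 4250 and 3250 on the first. The lowest second-morning array was just above the highest first-morning array. TF was 1.48-fold higher (95% interval 1.26 to 1.74, adjusted p = 0.0425). The call was lost without array 1 of 50 h, either array of 54 h, array 2 of 26 h or array 2 of 30 h (adjusted p 0.0581 to 0.533). The 3 dimmer probe sets of TF were not called, and their signs were mixed (log2 differences -0.03, 0.40 and -0.37). TF was the only called gene of 12 oligodendrocyte markers. The other 11 summed to 10400 to 12200 on the second morning and 9560 to 12200 on the first, and MBP, a myelin protein, had 7150 to 8380 and 6750 to 8420. ALB, the defining plasma protein of the liver, was at 1.85 to 15.9 on the second morning and 7.6 to 11.9 on the first. Of 22 liver and plasma genes, TF included, 14 had positive and 8 negative differences. The 21 not called summed to 3910 to 7390 on the second morning and 4610 to 6780 on the first. The 13 choroid plexus markers summed to 925 to 1130 and 989 to 1120.

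EGR1, a zinc finger transcription factor that neurons induce within minutes of stimulation, had signals of 658, 617, 465 and 414 on the second morning, against 1060, 1380, 777 and 781 on the first. All second-morning arrays lay below all first-morning arrays. EGR1 was 1.84-fold lower (95% interval 1.53 to 2.20, limma adjusted p = 8.25e-04), by 1.90-fold at hour 2 and 1.77-fold at hour 6. The call held without each array in turn, with log2 differences of -0.97 to -0.78. A dim probe set of EGR1, at 14.1 to 23.5 on the second morning and 14.6 to 21.2 on the first, had a difference of 0.00. On the short day EGR1 averaged 875 at 2 h and 743 at 6 h, and then 465 to 642 from 10 h to 22 h. It averaged 1220 at 26 h and 1160 at 44 h. It then stood at 637 at 50 h and 440 at 54 h, and between 420 and 492 from 58 h to 70 h. Levels near those of the second morning were thus also seen on the short day, at later hours of the day.

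No other immediate early gene was called. Of 19 tested, EGR1 was also the only one with an unadjusted p under 0.05, and the median log2 difference was -0.05. FOS, a subunit of the AP-1 transcription factor, was dim, with 21.2, 19, 5.42 and 1.34 on the second morning, against 16.4, 28.9, 13.4 and 15.4 on the first (adjusted p = 0.856). NR4A2, a nuclear receptor induced by activity, had 39 to 48.1 on the second morning and 42.2 to 49.7 on the first. HOMER1, a postsynaptic scaffold protein counted here with the thyroid hormone response genes, had 180, 234, 146 and 182 on the second morning, against 257, 353, 234 and 244 on the first. Its arrays met at 234, and the log2 difference of -0.55 was not called (adjusted p = 0.23).

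The called chaperone genes had their highest short-day means at hours 2 and 6. HSPA2, a member of the HSP70 family, had signals of 280, 214, 188 and 192 on the second morning, against 496, 656, 359 and 414 on the first. The groups did not overlap. HSPA2 was 2.18-fold lower (95% interval 1.65 to 2.88, adjusted p = 0.00861). Its means were 558 at 2 h and 323 at 6 h on the short day and 144 to 181 from 10 h to 22 h, then 576 at 26 h and 386 at 30 h. At 50 h and 54 h they were 247 and 190. Leaving out array 2 of 50 h, array 2 of 26 h or array 2 of 30 h ended the call, with adjusted p of 0.0767, 0.165 and 0.0728.

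DNAJA4, a J-domain cochaperone of HSP70, had signals of 354, 329, 339 and 327 on the second morning, against 729, 478, 620 and 666 on the first. The second-morning arrays lay close together and below every first-morning array. DNAJA4 was 1.83-fold lower (95% interval 1.48 to 2.26, adjusted p = 0.00861). Without array 1 of 26 h the adjusted p was 0.101, and without array 2 of 30 h it was 0.0523. A second probe set had 91.1 to 151 on the second morning and 165 to 258 on the first and was not called (log2 difference -0.75, adjusted p = 0.248). The 2 dimmest probe sets, at 20.5 or less on the second morning and 11.8 or less on the first, had positive differences that were not called. The DNAJA4 mean of 46 h, 314, lay just below the second-morning arrays. On the short day DNAJA4 averaged 604 at 2 h and 830 at 6 h, and then 368 at 10 h, 488 at 14 h, 307 at 18 h and 381 at 22 h. Levels near those of the second morning were thus also seen on the short day, at later hours of the day.

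BAG3, another cochaperone of HSP70, had 250, 271, 232 and 249 on the second morning, against 322, 441, 323 and 354 on the first. The groups did not overlap, but the gene did not pass the test (log2 difference -0.51, adjusted p = 0.163); it did without array 1 of 26 h (adjusted p = 0.0363). Of the 25 cytosolic heat shock genes tested, 2 were called lower and none higher. In 4 of them, HSPA2, DNAJA4, BAG3 and DNAJA1, all second-morning arrays lay below all first-morning arrays, and none had them all above, against 1.58% and 1.70% of all genes. At an unadjusted p under 0.05, 6 of the 25 were lower and none was higher, against 6.43% of all genes in either direction. The list was chosen with earlier results of these data known, and both counts include the called HSPA2 and DNAJA4. These counts are a description and do not test the list. The median of the list was -0.09. The most abundant members were close on both mornings: HSPA8, the constitutive HSC70, had 4160 to 4570 on the second morning and 4210 to 5830 on the first, and HSP90AA1 had 3680 to 4030 and 3710 to 4450. Of 24 endoplasmic reticulum chaperones none was called and 4 had an unadjusted p under 0.05, 2 higher and 2 lower. Among the lower was HSPA5, the chaperone BiP, with 1290 to 1710 on the second morning and 1690 to 2260 on the first (log2 difference -0.41, adjusted p = 0.59). The other lower gene was DNAJC3, a cochaperone of BiP, with 22.9, 71.2, 89.5 and 19.4 on the second morning, against 65.8, 64.7, 98.2 and 96.8 on the first (log2 difference -0.96, adjusted p = 0.679). The mornings overlapped.

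The other named genes called lower have no shared list. PRKX, a catalytic kinase of the cyclic AMP family, had signals of 386, 529, 359 and 497 on the second morning, against 595, 673, 669 and 670 on the first. These did not overlap, and 3 of the first-morning arrays lay between 669 and 673. PRKX was 1.49-fold lower (95% interval 1.26 to 1.76, adjusted p = 0.0456). The call was lost without each array except array 2 of 50 h and array 2 of 54 h (adjusted p 0.0665 to 0.368). The 2 dimmer probe sets of PRKX had negative differences that were not called.

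CRMP1, a collapsin response mediator protein of growing axons, gave different results on its 2 probe sets. The called probe set had 436, 543, 354 and 413 on the second morning, against 590, 601, 679 and 683 on the first, without overlap. It was 1.48-fold lower (95% interval 1.25 to 1.74, adjusted p = 0.049), and the call was lost without each array except array 2 of 50 h (adjusted p 0.0566 to 0.334). The brighter probe set had 1830, 1910, 1480 and 2300 on the second morning, against 1520, 1600, 1930 and 1420 on the first, with a log2 difference of 0.21 that was not called (adjusted p = 0.891). No direction is therefore given for CRMP1 as a gene.

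ANKRD10, an ankyrin repeat protein, had signals of 118, 132, 112 and 107 on the second morning, against 190, 215, 199 and 164 on the first. The groups did not overlap, and the gene was 1.63-fold lower (95% interval 1.33 to 2.01, adjusted p = 0.0498). This lay just inside the threshold, and the call was lost whichever of the 8 arrays was left out (adjusted p 0.0728 to 0.349). A dimmer probe set of ANKRD10 was not called (log2 difference -0.20).

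GREM1, a secreted antagonist of bone morphogenetic proteins, was at the bottom of the scale on the second morning. Its signals were 2.79, 3.63, 3.07 and 3.63 on the second morning, of which 2 were under the floor of 3.509, against 28.3, 27.5, 17.2 and 28 on the first. The groups did not overlap, and the log2 difference was -2.79 on floored values (adjusted p = 0.00861). With log2(signal + 16) the GREM1 difference was -1.09 and was called, and with a floor 2 times as high it was -1.82 and was not (adjusted p = 0.0503). It was not called without array 1 of 50 h, array 2 of 26 h or array 2 of 30 h (adjusted p 0.0542 to 0.0728). GREM1 was erratic over the series, with means of 3.85 at 34 h, 20.3 at 42 h and 25.4 at 62 h, and on the short-day mornings it was at 5.42, 8.89, 16.3 and 2.79.

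LOC422926, which has no gene name in the annotation used, had signals of 3.67, 8.66, 18.7 and 17 on the second morning, against 51.9, 59.2, 37.4 and 39.7 on the first. These did not overlap, and the transcript was 4.61-fold lower (95% interval 2.53 to 8.39, adjusted p = 0.0294). That fold rests on signals down to the floor of 3.509, and with log2(signal + 16) the LOC422926 difference was -1.19, still called. The call was lost without each array except array 2 of 50 h (adjusted p 0.0697 to 0.287). Its other 2 probe sets were dim and not called. The called probe set of LOC422926 had short-day means of 13.6 at 10 h, 13.9 at 18 h and 55.3 at 22 h. On the first long day its means were 55.5 at 26 h and 12.9 at 34 h. Levels near those of the second morning were thus also seen before it. Of the 2 called probe sets with no symbol, the dimmer had 185, 189, 139 and 158 on the second morning, against 283, 240, 353 and 275 on the first, without overlap (1.71-fold lower, adjusted p = 0.00861). The brighter had 775, 1220, 930 and 853 on the second morning, against 2570, 1220, 5140 and 2530 on the first. Its arrays met at 1220, and it was at 738 to 1320 on the short-day mornings, near its level of the second morning. The calls of both were lost without array 1 of 50 h, array 1 of 54 h, array 1 of 26 h or array 1 of 30 h, and that of the brighter also without array 2 of 54 h (adjusted p 0.0549 to 0.337 over these fits).

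Split by hour, DIO3 was called at both hours, and the count of calls was higher at hour 6. These counts do not compare the hours with each other. At hour 2 only DIO3 was called among 32057 probe sets (0.00312%), and 1801 had an unadjusted p under 0.05. At hour 6, 9 probe sets were called (0.0281%), 3 higher and 6 lower, and 1796 had an unadjusted p under 0.05. Those of DIO3, CRMP1 and both transcripts with no symbol were lower at hour 6, and those of DIO2, VIM and FAM150B were higher. DIO2 was 4.10-fold higher at hour 6 and had a ratio of 1.73 at hour 2, and FAM150B was 3.01-fold higher at hour 6 with a ratio of 1.40 at hour 2. The test of the difference between the hours called no probe set (0%), with 1605 at an unadjusted p under 0.05, so no gene was shown to depend on the hour. That count was 1 without array 1 of 50 h, array 2 of 26 h or array 2 of 30 h, and 5 without array 2 of 54 h. The unadjusted p of that test was 0.011 for both DIO2 and FAM150B, 0.0148 for LOC422926 and 0.0251 for CRMP1. With 2 arrays a side, the count at hour 2 was 13 without array 1 of 50 h, 12 without array 2 of 50 h and 8 without array 1 of 26 h, and the count at hour 6 was 18 without array 1 of 54 h and 25 without array 2 of 30 h.

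The other 2 calls at hour 6 were both probe sets of FAM219A, a gene outside the naming rule that is named after its values were seen. Its first probe set had 3.57 and 1.71 at 54 h, against 117 and 83.6 at 30 h, and at hour 2 it had 18.7 and 9.52 at 50 h, against 4.36 and 21.5 at 26 h. The groups were apart at hour 6 and overlapped at hour 2. Signals of FAM219A moved widely at other times as well, with means of 5.44 at 10 h, 104 at 14 h, 11 at 40 h and 83.4 at 44 h.

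**Figure D3:**
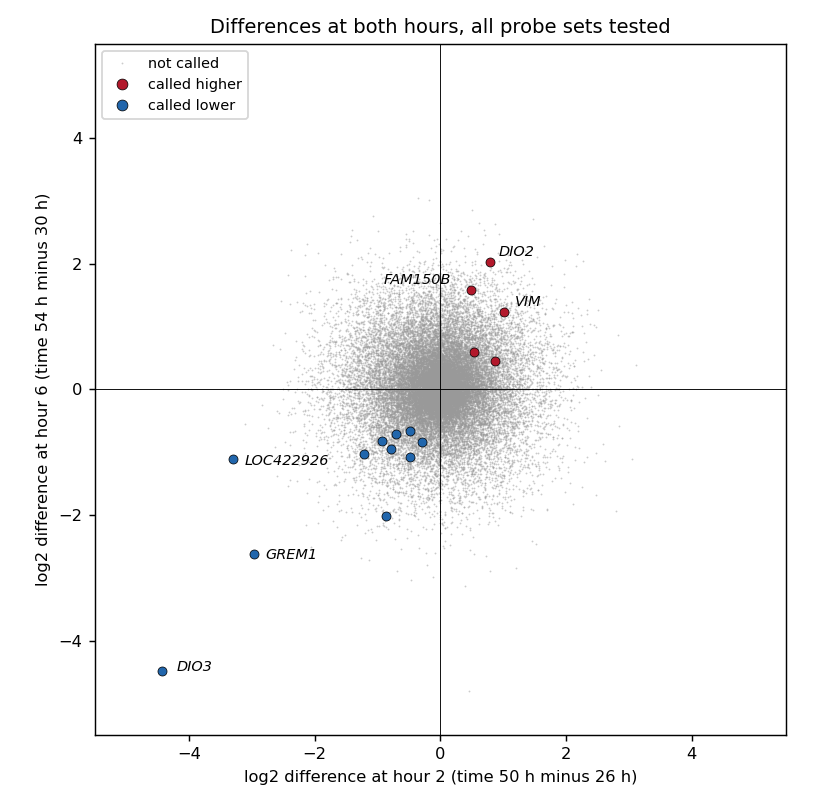
Log2 difference at hour 2 (time 50 h minus time 26 h, horizontal) against hour 6 (time 54 h minus time 30 h, vertical) for the 32057 probe sets tested, with the 5 called higher on the second morning in red and the 11 called lower in blue. DIO3 lies at -4.43 and -4.48, apart from all others, and DIO2 at 0.79 and 2.03.

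The first long-day morning was also set against the short-day morning, both of which precede the longer light. Of 32057 probe sets 1 was called (0.00312%), and 1705 had an unadjusted p under 0.05. On values without scaling 14 were called, and the other planned settings with all arrays gave 0 to 4. It belongs to LOC427439, named after its values were seen, with 205, 224, 266 and 230 on the first long-day morning, against 514, 429, 349 and 314 on the short-day morning (log2 difference -0.78, adjusted p = 0.00182). LOC427439 was not called between the long-day mornings (log2 difference -0.30, adjusted p = 0.727). The call of LOC427439 was lost without array 1 of 6 h, where no probe set was called; the count was 2 to 5 without any other array except array 2 of 6 h. DIO3 was at 321, 257, 351 and 224 on the short-day morning, and VIM was at 1210, 2030, 1950 and 1400, so that the second-morning arrays of both genes also stood outside the short-day range. EGR1, at 819, 931, 683 and 802, was likewise above every second-morning array on the short-day morning. The ranges of HSPA2 met, with 276 to 783 on the short-day morning and up to 280 on the second long-day morning. With the short-day mornings as the reference, chosen after seeing the data, limma called 10 of the 16 probe sets. Those of PLSCR1, TF, ANKRD10, GREM1, LOC422926 and the brighter one with no symbol were not called (adjusted p 0.0658 to 0.994). This comparison and the main one share the arrays of 26 h and 30 h.

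**Figure D4:**
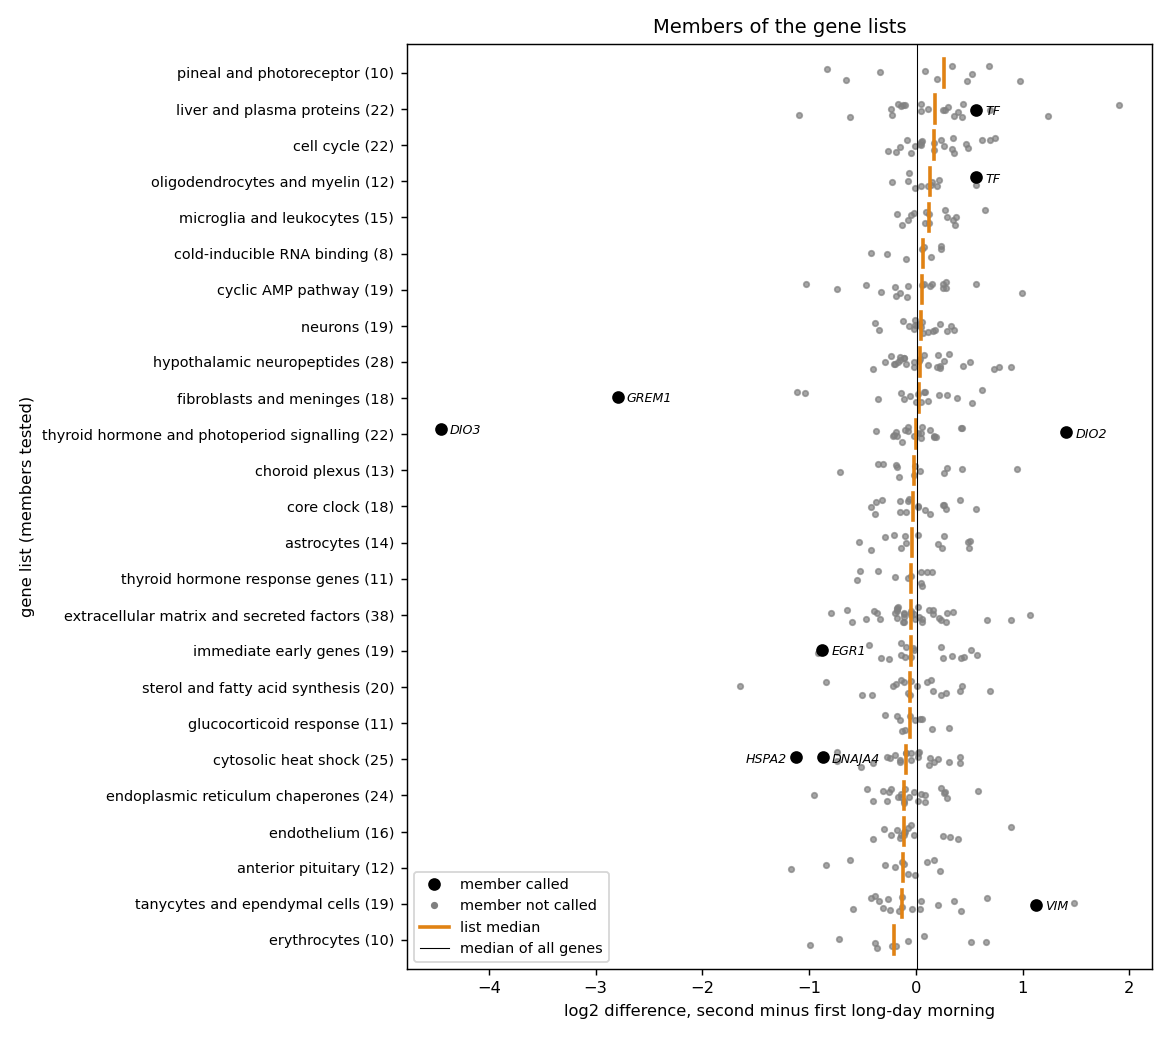
Log2 difference, second minus first long-day morning, of every tested member of 25 gene lists, with called members as labelled black points, other members in grey and the list median in orange; the thin line is the median of all genes, 0.01. The list medians lie between -0.20 for erythrocyte genes and 0.27 for pineal and photoreceptor genes, and DIO3 stands apart from all other members at -4.45.

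Most of the 25 gene lists held no call. Their medians ran from -0.20 for erythrocyte genes to 0.27 for pineal and photoreceptor genes, against 0.01 for all genes. In 18 lists no member was called in limma. Over all 12311 genes, 14 had a called probe set, so a list without a call says little about its members. An unadjusted p under 0.05 was seen in 791 of the 12311 genes. Among the 18 tested core clock genes, which drive the daily transcription cycle, 3 had an unadjusted p under 0.05 and the median was -0.02. They were CLOCK at a log2 difference of -0.39, NFIL3 at -0.42 and NR1D2 at 0.41 (adjusted p 0.793 to 0.814). The other 15 had log2 differences from -0.38 for TEF to 0.56 for ARNTL2, among them CRY1, a repressor of the clock, at -0.06. The 28 hypothalamic neuropeptides had a median of 0.04, and 2 of them had an unadjusted p under 0.05. CCK, the gene of cholecystokinin, had 183 to 216 on the second morning and 126 to 172 on the first, without overlap (adjusted p = 0.665). GNRH1, which encodes gonadotropin-releasing hormone, was near the floor on both mornings, at 0.635 to 7.79 on the second and 1.33 to 13.7 on the first. POMC, a precursor of melanocortins, had 147 to 161 on the second morning and 158 to 190 on the first.

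Glial, blood and matrix genes were also without calls beyond those named. Of 14 astrocyte markers none was called and 5 had an unadjusted p under 0.05, 3 higher and 2 lower, against the 6.43% of all genes. This list too was chosen with earlier results of these data known, so the count is a description. SLC4A4, a bicarbonate transporter, had 121 to 164 on the second morning and 71.7 to 136 on the first, and FGFR3, a fibroblast growth factor receptor, had 442 to 724 and 742 to 857. SOD3, the extracellular superoxide dismutase, had 115, 107, 133 and 97.1 on the second morning, against 40.9, 57.6, 60.7 and 93.1 on the first. Its arrays did not overlap, and it was not called (log2 difference 0.89, adjusted p = 0.423). The 38 tested genes of extracellular matrix and secreted factors had a median of -0.05, with 15 differences positive and 23 negative. Their summed signal was 6100 to 6550 on the second morning and 6590 to 7060 on the first, without overlap. A sum of signals weighs bright members most, and the difference in this sum was not tested. Taken singly, 1 member had all second-morning arrays above all first-morning arrays and 0 had them all below. Over all genes these shares were 1.70% and 1.58%. Of the 38, 3 had an unadjusted p under 0.05, 2 higher and 1 lower. Among these MMP2, a matrix metalloproteinase, had 85, 82.2, 114 and 119 on the second morning, against 148, 174, 134 and 101 on the first, with overlap (log2 difference -0.47, adjusted p = 0.679). HPX, the heme carrier hemopexin, had 39, 5.91, 33.5 and 21.9 on the second morning, against 4.3, 3.51, 5.33 and 10.9 on the first (log2 difference 1.90, adjusted p = 0.294). Without its low array, array 2 of 50 h, HPX passed the test (adjusted p = 0.0224). Of the 20 genes of sterol and fatty acid synthesis none was called and 3 had an unadjusted p under 0.05, 1 higher and 2 lower. Among the lower was ELOVL5, a fatty acid elongase, with 166 to 195 on the second morning and 208 to 274 on the first. Of the 19 listed genes of the cyclic AMP pathway none was called and 2 had an unadjusted p under 0.05, 1 higher and 1 lower. The called kinase gene PRKX is not on this list. The lower was PKIA, an inhibitor of protein kinase A, with 582 to 701 on the second morning and 684 to 863 on the first (log2 difference -0.33, adjusted p = 0.646).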

How the data were processed

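The 42 arrays were grouped by the times in their labels. The deposited values are linear signal intensity, 1 per probe set and array, from GCOS 1.2 per the submitters' processing notes. Neither a scaling target nor detection calls are stated in the sources used here. Each of the 38535 probe sets is a set of short probes designed for chicken, and how well they match quail was not tested. The arrays' 2% trimmed means ran from 25.15 to 40.75, so each array was multiplied by a factor of 0.796 to 1.29 to share a trimmed mean of 32.42. Signals below a floor of 3.509, which is the arrays' median 25th percentile, were set to it before log2. The 96 control probe sets were left out, and a probe set was kept if above its array's median on at least 2 arrays (32057 kept). Without controls 38439 remained: the platform annotation gives 27168 of them 1 symbol, 177 several and 11094 none. The kept probe sets with 1 symbol stood for 12311 genes, and 10266 of their symbols were found in the quail RefSeq gene table.

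The model had a mean for each time and used all arrays; limma 3.58.1 under R 4.3.3 fitted it (residual degrees of freedom 21, median prior degrees of freedom 14.81, eBayes with a variance trend, two-sided, Benjamini-Hochberg over all kept probe sets, threshold 0.05, 95% intervals). The brightest probe set over all arrays stands for a gene in list counts. Named genes were taken from the lists of thyroid hormone and photoperiod signalling and of the core clock (members not named lie within the ranges given), and from up to 15 called genes per direction with the same sign at both hours, and from up to 3 members of each of the other lists with an unadjusted p under 0.01; genes outside this rule are said to be so, except defining markers and list members given to describe a list. The lists and the comparison were chosen with earlier results of these data known. Replicate numbers did not pair the arrays: over probe sets, the difference of replicate 1 minus replicate 2 correlated between time points at -0.00732 to 0.0368. The model was also run on simulated data with independent normal noise of the fitted spread. Those properties were set in advance, so that run does not test them on these arrays. Alternatives covered scaling, floor, filter, spread, arrays in the fit, replicate block, brightness and each array left out. The short-day mornings as the reference were an alternative chosen after seeing the data. The number of arrays limits the precision.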

Additional observations from a re-analysis of the deposited data

Results flagged for a closer look

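In 3 of 40 groups of 4 arrays checked, 1 array stood far from the other 3. Chance gives about 1 in 20 for independent values, so this count is close to that rate. The groups mix 2 hours of the day and share the same arrays, so that rate is only a rough guide. DIO2 on the second morning had 56.9 on array 2 of 50 h, against 156 to 187 on the other arrays. PRKX on the first morning had 595 on array 1 of 26 h, against 669 to 673 on the others. GREM1 on the first morning had 17.2 on array 1 of 30 h, against 27.5 to 28.3 on the others.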

How the results depend on the processing

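All 16 called probe sets kept their direction in the 20 planned settings, and only that of DIO3 was called in every one of them. Against 16, the settings gave 10 calls with median centring, 3 without a variance trend and 1 in a fit of only the compared arrays, 7 to 19 with 1 array left out, and 40 with the short-day mornings as the reference, of which 10 were shared. With the replicate block 14 of the 16 remained. At hour 2, against 1, there were 2 as deposited, 3 with quantile normalization, 2 with the doubled floor, 2 with log2(signal + 16), 4 without a filter, 2 with the stricter filter, 2 without a variance trend, 0 with only the compared arrays and 1 to 13 with 1 array left out. At hour 6, against 9, the counts were 4 as deposited, 1 without a variance trend, 0 with only the compared arrays and 6 to 25 with 1 array left out. For the difference between the hours, against 0, there were 4 without a filter and 0 to 5 with 1 array left out. Between the first long-day and the short-day morning, against 1, they were 14 as deposited, 2 with quantile normalization, 4 with the doubled floor, 3 with log2(signal + 16), 2 without a filter, 0 without a variance trend, 3 with brightness as a covariate, 0 with only the compared arrays and 0 to 5 with 1 array left out. The cause of these shifts was not tested; the fit of only the compared arrays has fewer arrays to estimate the spread. Among genes not called, EYA3 turned to -0.002342 as deposited and ran from -0.2493 to 0.5139 with 1 array left out, TSHB from -0.5543 to 0.29 and CGA from -0.2863 to 0.131. With the short-day mornings as the reference TSHB turned to 0.9618, TTR to -0.07177 and the brighter called probe set with no symbol to 0.03834. With 1 array left out, the differences in array quality ran from -0.117 to 0.85 percentage points at the floor, -0.182 to 0.358 in the actin 3' to 5' ratio and -0.0967 to -0.04 in the GAPDH ratio. The last reached the smallest exact permutation p, 0.0286, without array 1 of 50 h. Dim probe sets near the floor limit what can be seen of GREM1, TSHB and FOS.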
